A study of Mus musculus with 24 samples.

Results

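The chemokine receptor gene Cxcr3 and the genes of its ligands, Cxcl9, Cxcl10 and Cxcl11, were followed across 24 mouse tumors. They were chosen by name, as the rows whose Ensembl identifiers carry these 4 symbols in the GENCODE M21 annotation, and are 4 of the 55401 genes in the deposited counts. RNA was sequenced from TC2Ras tumors, which grow from a mouse prostate adenocarcinoma line made from TRAMP-C2 cells by adding activated H-Ras and the mouse androgen receptor. All hosts were male C57/BL6 mice of 8 to 10 weeks. The subcutaneous (SC) tumors were harvested on day 7 from mice whose muscle received, by sonoporation, an IL-27 plasmid (SC IL-27, n = 2) or an empty vector (SC control, n = 2). The intratibial tumors grew from TC2Ras cells that also carried firefly luciferase. They came from mice given the empty vector with the PVP vehicle (control), the IL-27 vector with PVP (IL-27), the empty vector with cabozantinib (cabo), a tyrosine kinase inhibitor given by mouth at 30 mg/kg each day for 2 weeks, or the IL-27 vector with cabo (IL-27+cabo). Each of these 4 groups had 3 tumors from day 14 (D14) and 2 tumors from the end of the study (EOS), when mice had reached the ethical endpoint and cabo was no longer given. The IL-27 plasmid was thus injected into muscle and not into the tumor, and which cells made IL-27 was not tested. All tumors came from a single line, and the day of each EOS harvest was not given in the sources used here. Subcutaneous tumors are named by replicate and intratibial tumors by mouse number.

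CXCR3 is a G protein-coupled receptor carried by activated T cells, mainly of the Th1 and CD8+ kind, and by NK cells, and it draws these cells toward its ligands. CXCL9 is induced chiefly by interferon gamma, whereas CXCL10 is also induced by type I interferon and by NF-kB, and all 3 ligands can be made by macrophages, dendritic cells, endothelial cells and tumor cells. In tumors the axis is known for the recruitment of cytotoxic lymphocytes. In the C57BL/6 reference genome the Cxcl11 gene is disrupted, and GENCODE M21 lists it as a polymorphic pseudogene, so its RNA is measured here without a statement about protein.

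The ligand genes lie side by side on chromosome 5 of GRCm38, all on the minus strand, in a span of 44139 bases that holds no other whole gene. Cxcl9 (ENSMUSG00000029417) runs from 92321347 to 92328079, Cxcl10 (ENSMUSG00000034855) from 92346638 to 92348889 and Cxcl11 (ENSMUSG00000060183) from 92359544 to 92365485. Cxcr3 (ENSMUSG00000050232) lies on chromosome X from 101731535 to 101734269, also on the minus strand. The exons of Cxcl10 share 133 bases with Art3 and those of Cxcl11 share 1582 bases with Gm2673, both on the opposite strand, and how the counting used strand is not given in the sources used here. Gm2673 had at most 5 counts in any tumor. Art3 had 44 to 524 counts in the intratibial tumors and, in the SC tumors, 251 and 313 without and 638 and 2114 with IL-27, the tumors in which Cxcl10 had 703 and 459. The 250 bases before the start of each gene, from RefSeq on GRCm38.p6, are shown because the ligands are described below as interferon-responsive genes. A RefSeq promoter was at hand for 3 of the 4 genes. The RefSeq start of Cxcr3 lies inside the GENCODE gene, so that 122 bases of its window are within the coordinates given above. Capitals mark matches, on either strand, to an interferon-stimulated response element core (GAAA, any 2 bases, GAAA), an NF-kB-like site (GGGA, any 4 bases, CC) or a TATA box (TATAAA).
Cxcl9, chr5:92328080-92328329, minus strand: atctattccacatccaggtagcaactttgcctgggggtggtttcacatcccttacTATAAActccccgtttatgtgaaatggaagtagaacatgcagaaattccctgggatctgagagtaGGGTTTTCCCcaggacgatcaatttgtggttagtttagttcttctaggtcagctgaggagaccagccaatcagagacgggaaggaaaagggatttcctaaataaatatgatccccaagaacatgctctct
Cxcl10, chr5:92348890-92349139, minus strand: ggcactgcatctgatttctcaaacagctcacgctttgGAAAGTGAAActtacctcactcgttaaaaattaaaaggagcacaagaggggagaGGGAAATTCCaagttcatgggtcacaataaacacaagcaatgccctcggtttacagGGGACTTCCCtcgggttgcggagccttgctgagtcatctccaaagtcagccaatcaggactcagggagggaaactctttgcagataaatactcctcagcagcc
Cxcr3, chrX:101734148-101734397, minus strand: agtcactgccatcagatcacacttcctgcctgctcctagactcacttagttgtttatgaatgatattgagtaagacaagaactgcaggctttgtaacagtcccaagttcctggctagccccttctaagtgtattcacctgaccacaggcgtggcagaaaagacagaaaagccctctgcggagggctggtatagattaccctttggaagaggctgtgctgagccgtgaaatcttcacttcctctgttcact

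The Cxcl10 window held GAAAGTGAAA from 213 to 204 bases before the start, and NF-kB-like matches GGGAAATTCC from 159 to 150 and GGGACTTCCC from 103 to 94 bases before it, the latter read on both strands. Such a response element core was found in 2.98% of 32851 mouse promoters of the same table, and an NF-kB-like match in 17.6%. The Cxcl9 window held TATAAA from 195 to 190 and GGGTTTTCCC, an NF-kB-like match on the other strand, from 130 to 121 bases before the start, and TATAAA was found in 12.4% of promoters. The Cxcr3 window held none of these letters. A gamma-activated sequence core, TTCNNNGAA, present in 7.02% of promoters, was in none of the 3 windows.

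Libraries held between 63729005 and 83782258 counts on genes. Among values from 1 to 20, between 30.4% and 35.5% per library were multiples of 4, so a sequenced fragment may have added several counts, and counts below about 10 stand for very few molecules. Levels are given as CPM, counts scaled to edgeR's effective library size, and levels of different genes are compared only as RPKM, which also divides by exon length. Subcutaneous and intratibial tumors were normalized apart, so levels are not compared between them. In bulk tumors, fewer cells of a type and less RNA per cell cannot be told apart. The share of all genes whose groups do not overlap was not computed, so a lack of overlap is given below as a description only. The labelled tumor type was checked by 5 epithelial and tumor genes (Krt8, Krt18, Epcam, Cdh1 and Hras), which summed to between 6.44 and 14.2 CPM in the SC IL-27 and between 44.5 and 116 CPM in the SC control tumors, and between 38.2 and 308 CPM in the intratibial tumors. With IL-27 in the SC tumors 2 of these 5 fell, Hras (log2 fold change -3.89, SE 0.54) and Krt8 (-3.81, SE 0.69), where 16.5% of all genes fell. The share of tumor cells in each sample was not tested. Skeletal muscle marker genes were unequal among the groups. The summed CPM of 16 skeletal muscle markers was 43.9 to 201 in the D14 control tumors, 66.0 to 2309 in the D14 IL-27 tumors, 1261 to 1949 with D14 cabo and 1628 to 5339 with D14 IL-27+cabo. At EOS it was 47.8 to 87.3 in control, 64.9 to 65.7 in IL-27, 178 to 1009 in cabo and 147 to 297 in IL-27+cabo tumors, and in SC tumors it was 54.4 to 102 without and 451 to 1242 with IL-27. Myh2 was at 0 in the SC and EOS control tumors. In the SC tumors 14 of these 16 genes rose and 1 fell (median log2 fold change 6.27), against 3.52% and 16.5% of all genes. The part of muscle there was not tested. In bone it entered only through a fit with the muscle score, the mean log2 CPM of these markers, as a covariate. With that covariate edgeR called 0 genes with D14 cabo and 0 with D14 IL-27+cabo, against 352 and 12 without it, so no call in these 2 comparisons held under it. The score was -1.44 to 2.87 in the D14 controls, 5.45 to 6.02 with cabo and 5.73 to 7.92 with IL-27+cabo. Since the controls do not overlap either group, that fit cannot separate muscle from cabo there. A call lost under it in these comparisons does not tell which of them it followed. From D14 to EOS on average it called 33 genes with the covariate and 409 without.

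Per exon length, Cxcl10 was the most abundant of the 4 transcripts in 20 of 20 intratibial tumors, at 1.65 to 51.3 RPKM. Cxcl9 reached 0.178 to 27.4 RPKM in these tumors and Cxcr3 0.0661 to 2.01 RPKM. Cxcl11 was the scarcest, with at most 0.323 RPKM, and 5 of all 24 tumors had 0 counts of it. In those 5 tumors a count of 0 allowed up to 0.0408 to 0.0429 CPM, taking 3 counts as the limit and covering counting error only. As a fragment may have added several counts, the limit could be higher.

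**Figure D1:**
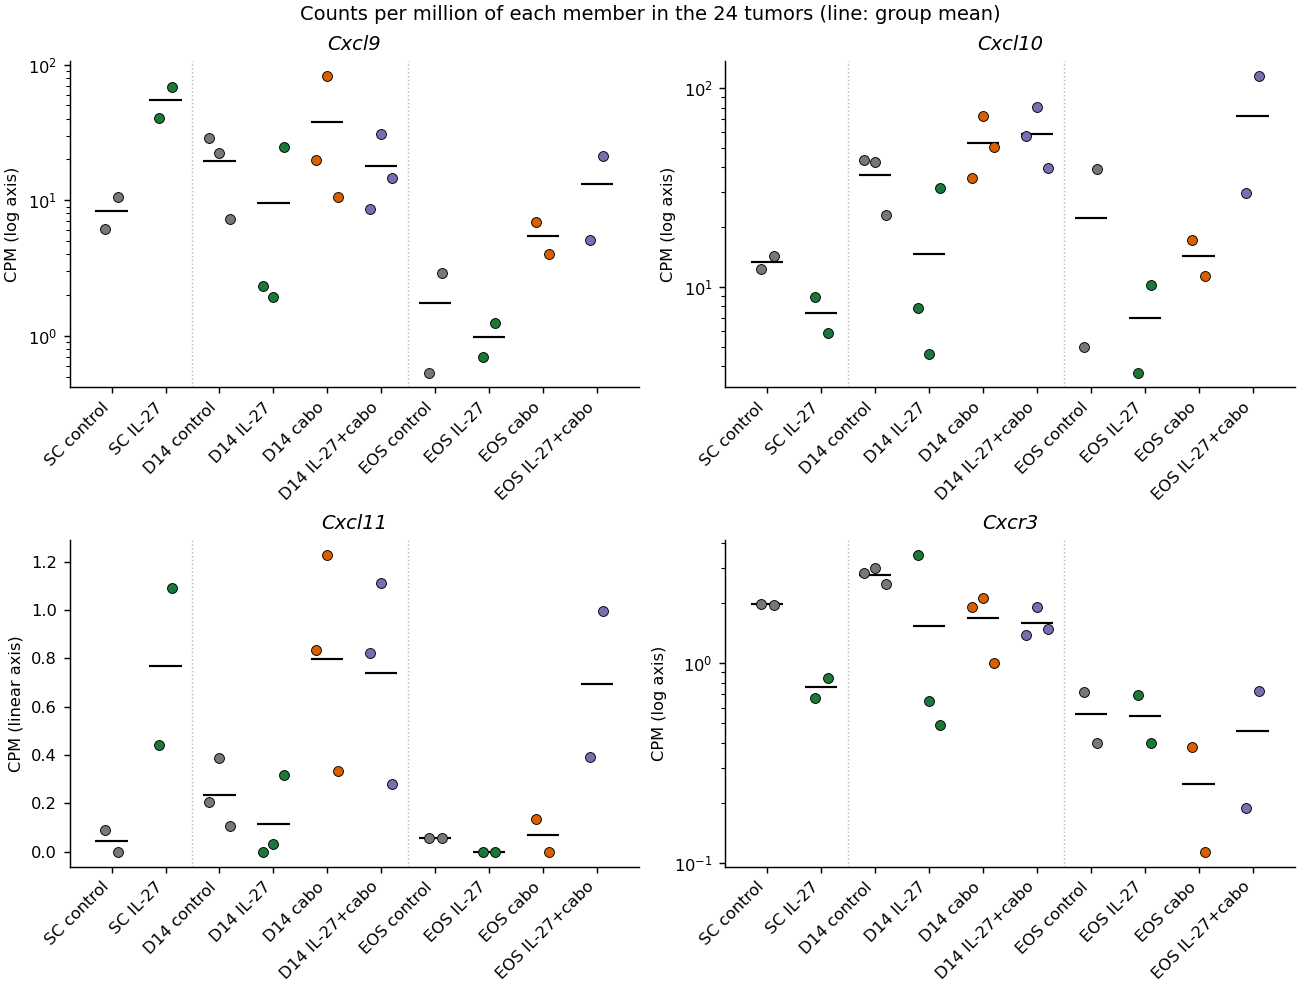
CPM of Cxcl9, Cxcl10, Cxcl11 and Cxcr3 in each of the 24 tumors (points) by group, with the group mean as a line and log axes except for Cxcl11. Cxcl9 is higher in both SC IL-27 tumors (40.7 and 68.8 CPM) than in both SC control tumors (6.11 and 10.6 CPM), and Cxcr3 is at most 0.726 CPM in the 8 EOS tumors.

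Cxcl9 rose in subcutaneous tumors with IL-27. It stood at 6.11 and 10.6 CPM in the SC control tumors and at 40.7 and 68.8 CPM in the SC IL-27 tumors. The groups did not overlap and the means were 8.33 ± 3.15 and 54.8 ± 19.9 CPM (SD, n = 2 each). In edgeR's fit the difference was 2.72 on the log2 scale (SE 0.46), a 6.57-fold increase, with an adjusted p of 0.0072 in the quasi-likelihood test. Of all 19360 genes tested, 3.52% were called higher. With offsets for GC content and length the log2 fold change of Cxcl9 was 1.67 (adjusted p = 0.0359), and without SC control replicate 1 its adjusted p was 0.0529. An exact permutation test of 2 against 2 tumors cannot give a p below 0.333, which was the p of all 4 genes. The summed epithelial and tumor genes were lower in both SC IL-27 tumors than in both controls, and their part in the Cxcl9 difference was not tested.

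The other ligands did not pass the adjusted threshold of edgeR's test in these tumors. Cxcl10 stood at 12.4 and 14.4 CPM in the controls and at 8.91 and 5.89 CPM with IL-27, so that the sister ligand of the same cluster was lower where Cxcl9 was higher. Its log2 fold change was -0.86 (SE 0.41, edgeR adjusted p = 0.186), and -1.51 (adjusted p = 0.0524) with offsets for GC content and length. Cxcl11 had 7 and 0 counts without IL-27 against 35 and 85 counts with it, or 0.0439 ± 0.0621 and 0.767 ± 0.457 CPM (SD, n = 2 each). The adjusted p of Cxcl11 was 0.106 in edgeR and 0.0384 in DESeq2. Its counts rest on few fragments, and 1 control tumor was at 0.

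The receptor did not rise with the ligand. Cxcr3 stood at 1.98 and 1.96 CPM in the SC control tumors and at 0.671 and 0.846 CPM in the SC IL-27 tumors, with no overlap. Its log2 fold change was -1.37 (SE 0.59, edgeR adjusted p = 0.145). The transcripts of Cxcr3 have the highest GC content of the 4 genes, at 54.2%, against 43.2% for Cxcl9, 47.1% for Cxcl10 and 44.6% for Cxcl11, and with offsets for GC content and length its log2 fold change was -0.39 (adjusted p = 0.711). Markers of T and NK cells were mostly higher in the same tumors. Of 18 such genes 5 rose and 1 fell, against 3.52% and 16.5% of all genes, with a median log2 fold change of 1.71 against 0.04 over all genes tested. Cd8a, the coreceptor of cytotoxic T cells, stood at 0.150 and 0.299 CPM without and at 6.03 and 2.21 CPM with IL-27 (log2 fold change 4.19, SE 0.79, edgeR adjusted p = 0.0113). Klrk1, which encodes the NKG2D receptor, and Gzma, a granzyme, rose by 2.09 and 3.76 on the log2 scale (SE 0.39 and 0.74, edgeR adjusted p = 0.0113 and 0.0132). The call of Klrk1 was lost with offsets for GC content and length, as given below. Of 9 macrophage markers 4 fell, among them the complement genes C1qc (-4.23, SE 0.41), C1qa (-3.86, SE 0.45) and C1qb (-3.03, SE 0.52), while 4 had values above 0, 3 of them at an unadjusted p under 0.05. DESeq2 called 3 macrophage markers higher and 4 lower, and their summed level was 1359 to 1534 CPM without and 1143 to 1595 CPM with IL-27. Of 11 marrow myeloid and erythroid markers 6 rose in edgeR, among them Ngp (6.57, SE 0.56), a neutrophil granule gene. Of 7 dendritic cell and 6 endothelial markers edgeR called 0 higher and 1 lower each, Flt3 (-1.93, SE 0.40) and Flt4 (-1.84, SE 0.51). DESeq2 called 3 higher in each list, with 1 dendritic and 2 endothelial markers lower. The part of these cells in the Cxcl9 values was not tested.

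At day 14 in bone, IL-27 alone called none of the 4 genes, as it called none of 18519 genes (0.0%). At an unadjusted p under 0.05 edgeR took 0 of the 4, against 2.76% of all genes, and DESeq2 also called 0. Cxcl9 stood at 28.6, 22.5 and 7.23 CPM in control mice 3, 5 and 7, and at 2.32, 1.93 and 24.6 CPM in IL-27 mice 4, 6 and 8. Cxcl10 had 43.5, 42.8 and 23.1 CPM in the controls and 7.80, 4.58 and 31.5 CPM with IL-27. IL-27 mouse 8 was thus within the control range for both, whereas mice 4 and 6 lay below every control. The log2 fold changes were -1.004 (SE 0.96) for Cxcl9 and -1.30 (SE 0.65) for Cxcl10, both with an edgeR adjusted p of 1.0, and they were -3.17 and -2.54 without mouse 8 and -0.52 and -0.88 without mouse 6. The muscle score was 6.68 in mouse 8 against 0.674 and 2.00 in mice 4 and 6. With the muscle score as a covariate the log2 fold changes were -3.00 for Cxcl9, -2.38 for Cxcl10 and -3.55 for Cxcl11 (SE 1.15, 0.65 and 1.42, edgeR adjusted p = 1.0 each).

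Cxcl10 had its highest D14 means in the groups given cabo, but not beyond the spread of the tumors after adjustment over all genes. Cxcl10 stood at 35.5, 72.9 and 50.7 CPM in cabo mice 21, 25 and 27 and at 57.3, 80.6 and 39.7 CPM in IL-27+cabo mice 20, 22 and 24. The group means of 53.0 ± 18.8 and 59.2 ± 20.5 CPM (SD, n = 3 each) exceeded those of the control group, 36.4 ± 11.6 CPM, and of the IL-27 group, 14.6 ± 14.7 CPM. Averaged over both vectors, the log2 fold change of Cxcl10 with cabo was 1.26 (SE 0.42, edgeR adjusted p = 0.216, DESeq2 adjusted p = 0.0451), and 0.779% of 19899 genes passed edgeR's test. An exact two-sided permutation test within vector over the 12 tumors gave p = 0.02 for Cxcl10, 0.02 for Cxcl11, 0.18 for Cxcl9 and 0.825 for Cxcr3. Against the controls alone the log2 fold changes were 0.52 (SE 0.30) for cabo and 0.72 (SE 0.36) for IL-27+cabo (edgeR adjusted p = 0.397 and 0.807). With the muscle score as a covariate the averaged value was 0.17.

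Cxcl11 was also higher on average in the cabo groups, at a far lower level. It had 0.205, 0.388 and 0.108 CPM in the D14 controls, 0, 0.0310 and 0.316 CPM with IL-27, 0.833, 1.23 and 0.335 CPM with cabo, and 0.824, 1.11 and 0.282 CPM with IL-27+cabo. The lowest tumor of each cabo group was below the highest control. The averaged log2 fold change with cabo was 2.19 (SE 0.78, edgeR adjusted p = 0.245), and with the muscle score as a covariate the value was 0.11. The D14 groups overlapped for Cxcl9. It stood at 19.9, 82.6 and 10.6 CPM with cabo and at 8.56, 30.9 and 14.5 CPM with IL-27+cabo, and its averaged log2 fold change of 0.90 (SE 0.71) had an edgeR adjusted p of 0.687. With the muscle score as a covariate the averaged value turned to -0.49. Mouse 25 in the cabo group was the highest of the 20 intratibial tumors for Cxcl9, and without it the averaged value was 0.26. Neither the IL-27 effect averaged over D14 tumors (log2 fold changes from -1.03 to -0.44) nor the interaction of IL-27 and cabo was called in edgeR for any of the 4 genes or of 19899 genes (0.0% each), and in each 0 of the 4 had a DESeq2 call or an unadjusted p under 0.05, which 4.45% and 1.88% of all genes had.

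The receptor was ordered differently from these ligands at day 14. Cxcr3 stood at 2.81, 2.98 and 2.48 CPM in control mice 3, 5 and 7, at 1.91, 2.11 and 1.01 CPM with cabo, and at 1.39, 1.91 and 1.48 CPM with IL-27+cabo. Every tumor of the cabo groups was below every control, whereas the means of Cxcl10 and Cxcl11 were higher there than in the controls. The log2 fold changes were -0.74 (SE 0.31, edgeR adjusted p = 0.249) for cabo and -0.78 (SE 0.32, edgeR adjusted p = 0.795) for IL-27+cabo. Neither was called, and in these comparisons 1.89% and 0.064% of genes were. The exact permutation p was 0.1 for each, the smallest that 3 against 3 tumors can give. In the IL-27 group Cxcr3 stood at 3.47 CPM in mouse 4, the highest of the 20 intratibial tumors, but at 0.650 and 0.489 CPM in mice 6 and 8.

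Cd3e, a subunit of the T cell receptor complex, split these tumors in the same way. It stood at 10.7, 10.8 and 9.85 CPM in the controls and at 9.01 CPM in IL-27 mouse 4, but at 1.16 and 1.73 CPM in IL-27 mice 6 and 8, at 2.07, 2.89 and 3.15 CPM with cabo and at 1.57, 1.73 and 1.56 CPM with IL-27+cabo. Cd3e fell with cabo (log2 fold change -1.97, SE 0.19, edgeR adjusted p = 0.00399) and with IL-27+cabo (-2.67, SE 0.26, edgeR adjusted p = 0.0406). Both calls were lost with the muscle score as a covariate (-2.09 and -2.75, adjusted p = 0.364 and 1.0), a fit that cannot separate muscle from cabo in these groups. When 1 tumor at a time was left out, the cabo call held in 6 of 6 fits and the IL-27+cabo call in 1 of 6. With cabo alone 5 of 18 T and NK cell markers fell (0.693% of all genes), Cd3e, Cd4 (-1.43) and Cd3g (-2.07) with the smallest p, and 0 rose in edgeR, while 2 were higher at an unadjusted p under 0.05 and DESeq2 called 2. The median of the list was -0.60 against -0.01 over all genes tested. With the muscle covariate Cd4 was at -1.11 and Cd3g at -1.69 (adjusted p = 0.737 and 0.703), and neither was called. Leaving out 1 tumor at a time kept the cabo calls of Cd4, Cd3g, Cd5 and Cd2 in 4, 3, 2 and 0 of 6 fits. Cd8a was higher with cabo, at 2.86, 1.45 and 1.08 CPM against 0.355, 0.427 and 0.0808 CPM in the controls, with an edgeR adjusted p of 0.0859.

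**Figure D2:**
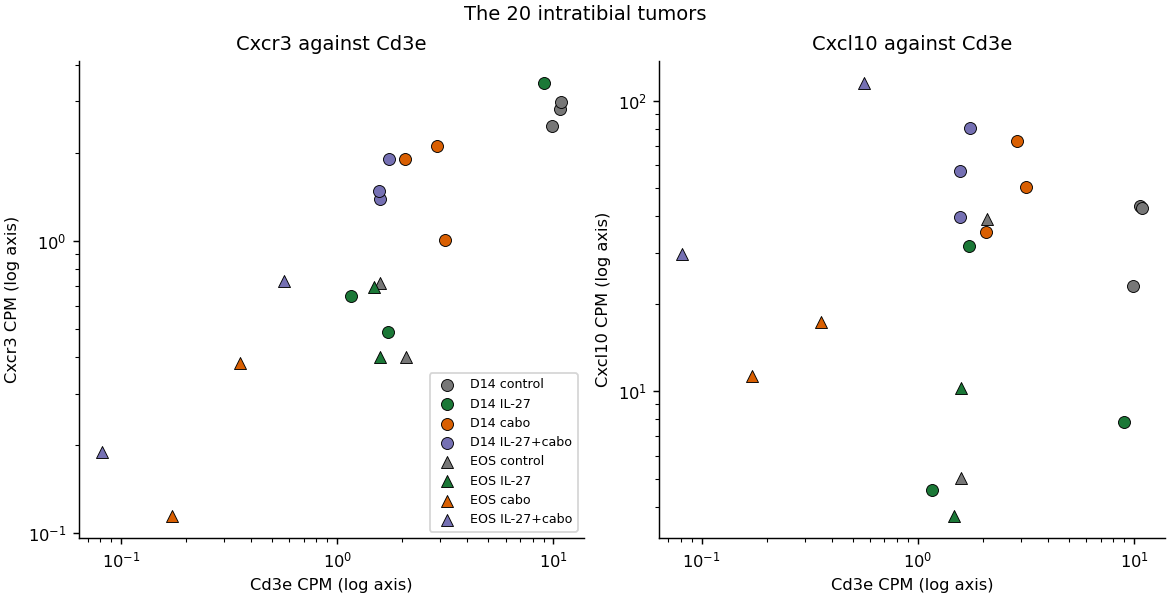
Cxcr3 against Cd3e and Cxcl10 against Cd3e in the 20 intratibial tumors, as CPM on log axes, with circles for D14, triangles for EOS and colors for treatment. The 3 D14 controls and IL-27 mouse 4 lie together at the top right for Cxcr3 and Cd3e, while Cxcl10 is not ordered by Cd3e.

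At EOS edgeR called no gene in any treatment comparison (0.0% of 20026 genes), with 2 tumors in each group. At an unadjusted p under 0.05 edgeR took 0 of the 4 with IL-27, 0 with cabo and 2 with IL-27+cabo, against 3.25%, 8.9% and 14.2% of all genes, and DESeq2 called 0, 0 and 1. Cxcl9 stood at 0.537 and 2.93 CPM in control mice 13 and 9, at 0.694 and 1.26 CPM in IL-27 mice 10 and 12, at 6.87 and 4.01 CPM in cabo mice 19 and 23, and at 5.06 and 21.3 CPM in IL-27+cabo mice 16 and 28. Both groups given cabo were above the controls without overlap, for which an exact permutation test of 2 against 2 tumors cannot give a p below 0.333. The log2 fold change of Cxcl9 with IL-27+cabo was 2.90 (SE 0.91, unadjusted p = 0.0142, edgeR adjusted p = 0.248, DESeq2 adjusted p = 0.00724), and it was 1.54 without IL-27+cabo mouse 28 and 4.6004 without control mouse 9. Cxcl10 stood at 5.01 and 39.3 CPM in the controls, at 3.71 and 10.2 CPM with IL-27, at 17.3 and 11.3 CPM with cabo and at 29.6 and 115 CPM with IL-27+cabo, where mouse 28 was the highest of the 20 intratibial tumors. The controls overlapped each of the other EOS groups for Cxcl10.

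Cxcl11 had 4 counts in each EOS control tumor, 0 in both IL-27 tumors, 10 and 0 with cabo, and 29 and 74 with IL-27+cabo. The IL-27+cabo tumors stood at 0.393 and 0.995 CPM, and the log2 fold change of this group against control was 3.57 (SE 1.47, edgeR adjusted p = 0.347). Cxcr3 was low in all EOS groups, at 0.716 and 0.401 CPM in the controls, 0.694 and 0.400 CPM with IL-27, 0.383 and 0.114 CPM with cabo, and 0.190 and 0.726 CPM with IL-27+cabo. Both cabo tumors were below both control and both IL-27 tumors, and the other groups overlapped (cabo against control: log2 fold change -1.16, SE 0.85, edgeR adjusted p = 0.728).

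Cxcr3 and Cxcl9 fell between day 14 and EOS. Averaged over the 4 treatments, the log2 fold change of Cxcr3 was -2.08 (SE 0.40, edgeR adjusted p = 0.0139) and that of Cxcl9 was -2.51 (SE 0.60, edgeR adjusted p = 0.0441), while 1.31% of 21563 genes were called lower and 1.9% in either direction. Cxcl11 was at -2.92 (SE 0.83, edgeR adjusted p = 0.0911, DESeq2 adjusted p = 0.00617) and Cxcl10 at -0.85 (SE 0.42, edgeR adjusted p = 0.365). An exact permutation of time within treatment over the 20 tumors, chosen after seeing the data, gave p = 0.0003 for Cxcr3, 0.0023 for Cxcl9, 0.0085 for Cxcl11 and 0.0554 for Cxcl10 over these 4 tests. The 16 skeletal muscle markers were all lower at EOS and 13 of them fell, with a median log2 fold change of -3.80. With the muscle score as a covariate Cxcr3 was at -2.69 (adjusted p = 0.0677), Cxcl9 at -1.45, Cxcl11 at -0.93 and Cxcl10 at -0.10 (adjusted p = 1.0 each), so none of the 4 was called. Leaving out 1 tumor at a time kept the adjusted p of Cxcr3 under 0.05 in 18 of 20 fits, with 0.0516 and 0.0608 without EOS IL-27 mouse 12 and EOS cabo mouse 23, whereas that of Cxcl9 stayed under 0.05 in only 5 of 20.

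Values within each treatment follow, and any lack of overlap among so few tumors is a description only. Differences between treatments in this change were tested only for cabo, as given below. The highest EOS control tumor for Cxcr3, at 0.716 CPM, was below the lowest D14 control, at 2.48 CPM, and EOS did not overlap D14 in the control, cabo or IL-27+cabo groups, the IL-27+cabo log2 fold change being -1.82 (SE 0.72, edgeR adjusted p = 0.925). With IL-27 or IL-27+cabo 0.0% of genes were called from D14 to EOS. In the IL-27 group the D14 tumors of mice 6 and 8 were already at EOS levels. The log2 fold change of Cxcr3 in the controls was -2.30 (SE 0.39, edgeR adjusted p = 0.117), where 0.104% of genes were called. Cxcl9 was lower at EOS without overlap in all but the IL-27+cabo group, with log2 fold changes in control, IL-27 and cabo of -3.48, -3.29 and -2.76 (SE 0.86, 1.23 and 0.89), and -0.46 (SE 0.77) in the IL-27+cabo group. With the muscle score as a covariate the IL-27 value was -0.07 and the IL-27+cabo value -3.81, and without D14 mouse 8 the IL-27 value was -1.14. Cxcl10 fell within the cabo group, from 35.5 to 72.9 CPM at D14 to 11.3 and 17.3 CPM at EOS (log2 fold change -1.86, SE 0.33, edgeR adjusted p = 0.0473), where 1.14% of genes were called lower. That call was lost without a filter on low counts (adjusted p = 0.127), with offsets for GC content and length (0.0508), with the muscle score as a covariate (-1.27, adjusted p = 0.371), with all intratibial groups in 1 fit (-1.89, adjusted p = 1.0) and whenever 1 of the 5 tumors was left out. The change of the cabo effect from D14 to EOS was not called for any of the 4 genes in edgeR, with 0 at an unadjusted p under 0.05 (7.68% of all genes) and 0 in DESeq2, where 0.292% of 21563 genes were called in edgeR.

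**Figure D3:**
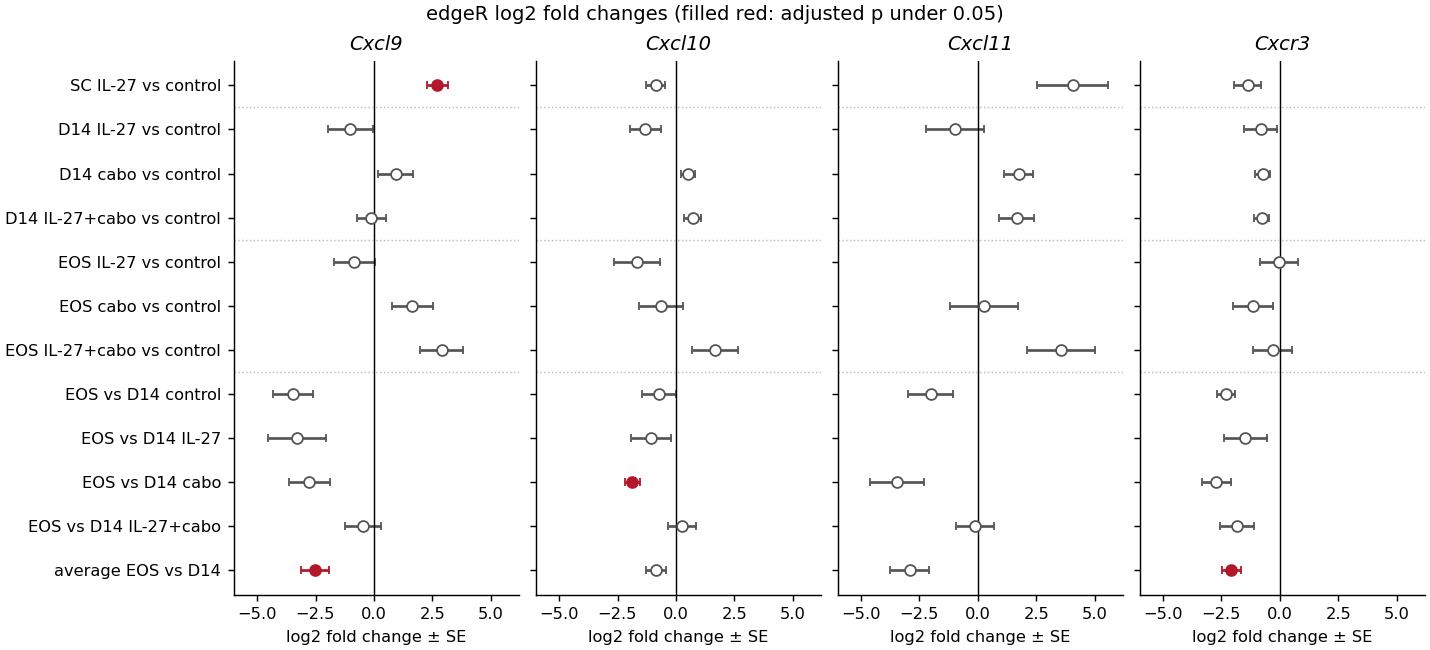
edgeR log2 fold changes of the 4 genes in 12 comparisons, with bars for the SE derived from the F statistic and filled red points for an adjusted p under 0.05. The calls are Cxcl9 in SC tumors (2.72), Cxcl10 from D14 to EOS with cabo (-1.86), and Cxcl9 (-2.51) and Cxcr3 (-2.08) averaged from D14 to EOS. No point is drawn for Cxcl11 in the IL-27 groups at EOS or from D14 to EOS, where counts were at or near 0.

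Ordered by mean level in the intratibial groups, Cxcr3 ran from D14 control (2.76 ± 0.254 CPM), cabo (1.67 ± 0.587), IL-27+cabo (1.59 ± 0.279) and IL-27 (1.54 ± 1.68; SD, n = 3 each) to the 4 EOS groups, between 0.248 ± 0.190 and 0.558 ± 0.223 CPM (SD, n = 2 each). The 3 treated D14 groups did not differ from each other beyond their spread, nor did the control, IL-27 and IL-27+cabo groups at EOS, and D14 IL-27 overlapped the EOS groups except cabo. Cxcl10 ran from EOS IL-27+cabo (72.5 ± 60.7 CPM, n = 2) through D14 IL-27+cabo, cabo and control, EOS control (22.1 ± 24.2, n = 2), D14 IL-27 and EOS cabo (14.3 ± 4.26, n = 2) to EOS IL-27 (6.98 ± 4.62 CPM, n = 2). Each neighbor in that order overlapped the next except the last pair, where both EOS cabo tumors were above both EOS IL-27 tumors. Cxcl9 had its highest mean with D14 cabo (37.7 ± 39.2 CPM, n = 3), where mouse 25 at 82.6 CPM stood far above the others at 19.9 and 10.6 CPM, and its lowest with EOS IL-27 (0.975 ± 0.397 CPM, n = 2).

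The balance of Cxcl9 and Cxcl10 was inverted in the SC IL-27 tumors. Cxcl10 exceeded Cxcl9 per exon length in 20 of 20 intratibial tumors and in both SC control tumors, where Cxcl10 RPKM was 2.71 and 1.83 times that of Cxcl9. In the SC IL-27 tumors Cxcl9 RPKM was 3.41 and 8.73 times that of Cxcl10. In bone the ratio was most even in D14 cabo mouse 25, with 1.18 times more Cxcl10, and most skewed in EOS control mouse 9, with 17.9 times more. The mean log2 ratio of Cxcl9 to Cxcl10 was -1.49 ± 0.549 (SD, n = 3) in the D14 controls and -3.90 ± 0.367 (SD, n = 2) in the EOS controls, without overlap. It was -2.92 ± 0.0794 with IL-27+cabo at EOS and -1.84 ± 0.115 with cabo (SD, n = 2 each). No test of the ratio was run.

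**Figure D4:**
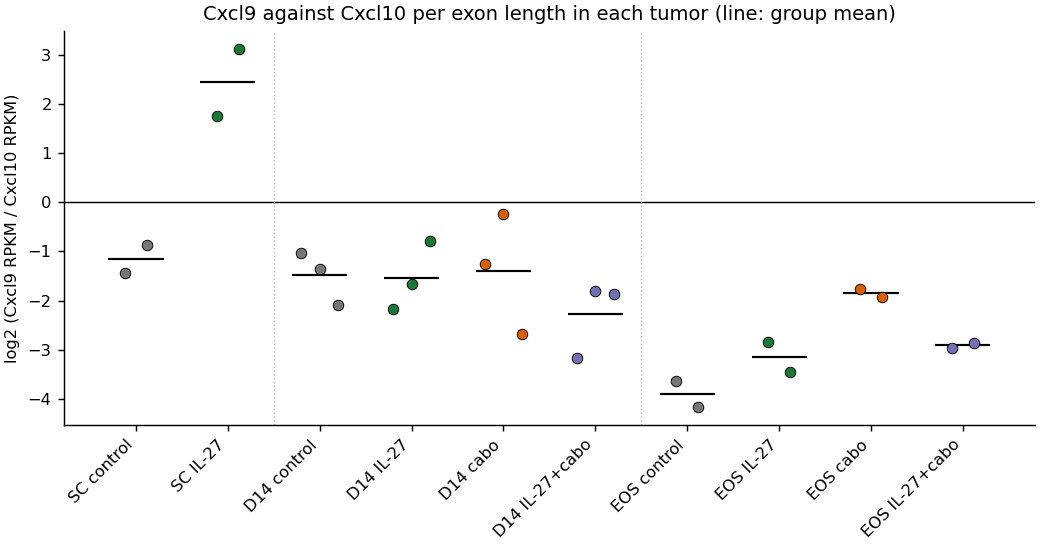
The log2 ratio of Cxcl9 to Cxcl10 RPKM in each of the 24 tumors (points) by group, with the group mean as a line; 0 marks equal amounts per exon length. Only the 2 SC IL-27 tumors lie above 0, at 1.77 and 3.13, and the EOS controls lie lowest, at -3.64 and -4.16.

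The ligands varied together from tumor to tumor, though several of these relations were weaker without 2 tumors. How these relations differ from those with the receptor was not tested. Over all 20 intratibial tumors, which mix both times, r of Cxcr3 was 0.428 with Cxcl9 (permutation p = 0.0587, rho 0.480, p = 0.0336), 0.294 with Cxcl10 (p = 0.208, rho 0.374, p = 0.105) and 0.355 with Cxcl11 (p = 0.124, rho 0.319, p = 0.168), and without the 2 farthest tumors r was 0.467, 0.281 and 0.554. Within the 12 D14 tumors Pearson's r of log2 CPM between Cxcl9 and Cxcl10 was 0.854 (permutation p = 0.00087) with Spearman's rho 0.692 (p = 0.0167), and r was 0.525 without the 2 tumors farthest from the median of Cxcl9. Within the 8 EOS tumors r was 0.888 (exact permutation p = 0.00412) and rho 0.810 (p = 0.0218), and r was 0.729 without the 2 farthest. Cxcl10 and Cxcl11 had r = 0.899 (permutation p = 0.00019) and rho = 0.804 (p = 0.00246) at D14, and 0.791 without the 2 farthest. At EOS their r was 0.798 (exact permutation p = 0.017) and rho 0.805 (p = 0.025), and r was 0.496 without the 2 farthest. Cxcl9 and Cxcl11 had r = 0.823 (permutation p = 0.00144) and rho = 0.699 (p = 0.0142) at D14, and 0.527 without the 2 farthest. At EOS their r was 0.747 (exact permutation p = 0.0321) and rho 0.732 (p = 0.0509), and r was 0.705 without the 2 farthest. For Cxcl10 and Cxcr3 r was 0.166 (permutation p = 0.626) and rho -0.00699 (p = 0.991) at D14, and 0.102 without the 2 farthest. For Cxcl9 and Cxcr3 r was 0.141 (permutation p = 0.664) and rho 0.105 (p = 0.751), and 0.146 without the 2 farthest. At EOS r of Cxcr3 was -0.247 with Cxcl9 (exact permutation p = 0.548, rho -0.214, p = 0.619), -0.0660 with Cxcl10 (p = 0.883, rho 0, p = 1.0) and 0.169 with Cxcl11 (p = 0.692, rho 0.220, p = 0.617), and without the 2 farthest it was -0.640, -0.342 and 0.249. Of 18 such relations, those between ligands at D14 kept an adjusted p of Pearson's r of 0.00313 for Cxcl9 and Cxcl10 and 0.000855 for Cxcl10 and Cxcl11, and those of Cxcl9 and Cxcl10 with Cxcr3 had 0.779 each. At EOS the adjusted p of Pearson's r was 0.0642 for Cxcl9 and Cxcl11. The adjusted p of Spearman's rho at D14 was 0.0501 for Cxcl9 with Cxcl10 and with Cxcl11. At EOS it was 0.0561 for Cxcl9 and Cxcl10, 0.0916 for Cxcl9 and Cxcl11 and 0.0563 for Cxcl10 and Cxcl11. These tumors span 4 treatment groups, which are too small for a relation within each.

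Genes with the most similar pattern were ranked by Pearson's r of log2 CPM over the 20 intratibial tumors, among 14184 genes with a mean of at least 1 CPM, as a description. For Cxcl9 these were Tgtp2 (0.957), Gbp2 (0.955), Gbp5 (0.948), Iigp1 (0.942) and Tap1 (0.938), of which Gbp2, Gbp5, Tgtp2 and Iigp1 encode interferon-inducible GTPases and Tap1 a peptide transporter of antigen presentation. For Cxcl10 they were Rtp4 (0.962), Ifit1 (0.957), Ifi211 (0.953), Oasl2 (0.952) and Napsa (0.951), and Ifit1 and Oasl2 are classic type I interferon-stimulated genes. For Cxcl11 they were Iigp1 (0.936), Cfb (0.932), Dhx58 (0.928), Igtp (0.926) and Gbp2 (0.922). For Cxcr3 they were Gimap3 (0.950), Cd2 (0.946), Gimap7 (0.923), Icos (0.922) and Ms4a4b (0.917), and Cd2 and Icos encode T cell surface proteins. Among 17 interferon gamma target genes the median r was 0.890 with Cxcl9, 0.877 with Cxcl10 and 0.830 with Cxcl11, but 0.419 with Cxcr3. Among 12 T and NK cell markers it was 0.344, 0.168 and 0.223 with the ligands and 0.781 with Cxcr3, over ranges of 0.128 to 0.933, 0.0152 to 0.887, 0.000711 to 0.841 and 0.374 to 0.946. Klrk1 was highest for each ligand, and had r = 0.394 with Cxcr3. All these values share the same 20 libraries, and their differences were not tested.

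Interferon gamma itself had its highest D14 mean in the controls, as Cxcr3 did. Ifng stood at 0.833, 1.14 and 0.754 CPM in the D14 controls and at 0.287, 0.432 and 0.175 CPM with cabo, where Cxcl10 was higher on average (log2 fold change of Ifng -1.62, SE 0.44, edgeR adjusted p = 0.118). With IL-27+cabo it stood at 0.0749, 0.420 and 0 CPM. In IL-27 mouse 4 Ifng was at 1.28 CPM beside 2.32 CPM of Cxcl9, while in mouse 8 it was at 0.316 CPM beside 24.6 CPM. At EOS Ifng was at most 0.114 CPM in any tumor, and it fell from D14 to EOS on average (-3.02, SE 0.74, edgeR adjusted p = 0.0484), as did Tbx21, the Th1 transcription factor (-1.58, SE 0.38, edgeR adjusted p = 0.0452). Both calls were lost with the muscle score as a covariate (-3.27 and -1.96, adjusted p = 0.415 and 0.262), and they held in 3 and 4 of 20 fits that left out 1 tumor. These Ifng values rest on few counts. In SC tumors Ifng stood at 0 and 0.0544 CPM without and at 0.671 and 1.71 CPM with IL-27 (5.39, SE 1.41, edgeR adjusted p = 0.0379), and at 4.44 with offsets for GC content and length (adjusted p = 0.0912).

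**Figure D5:**
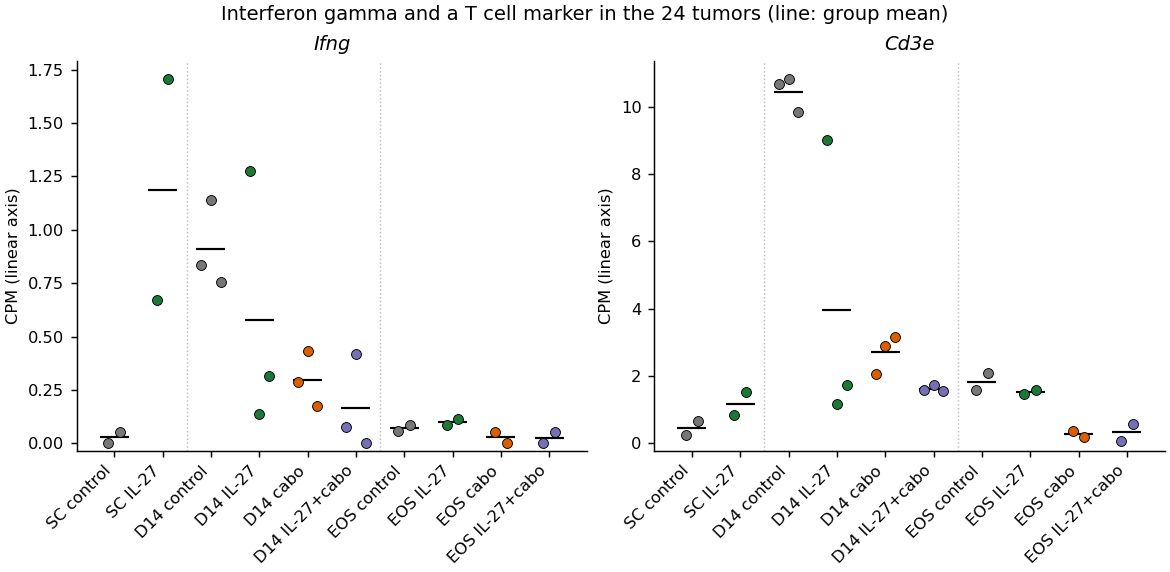
Ifng and Cd3e in each of the 24 tumors (points) by group as CPM on linear axes, with the group mean as a line. In bone both are highest in the D14 controls and IL-27 mouse 4, and at EOS Ifng is at most 0.114 CPM and Cd3e at most 2.08 CPM.

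The wider pathway was read from lists of genes, in which Tgtp, Gbp and Ccl21 genes have near-identical copies that counting could split. In the SC tumors 8 of 17 tested interferon gamma target genes rose and 1 fell, with a median log2 fold change of 1.77 against 0.04 over all genes. Iigp1 and Irgm2, which encode interferon-inducible GTPases, rose by 3.61 and 2.32 on the log2 scale (SE 0.74 and 0.47), whereas Psmb10, an immunoproteasome subunit, fell by 4.75 (SE 0.49). Of 12 upstream signaling genes Ifng rose, and Tyk2 (-2.30) and Ifngr2 (-1.56) fell, among all genes of which 3.52% rose and 16.5% fell. At D14 with cabo, where 1.2% of all genes rose, 1 of 18 target genes rose, Cd274, which encodes PD-L1 (0.94, SE 0.15, edgeR adjusted p = 0.0265), and the median was 0.81 against -0.01. The Cd274 call was lost with the muscle covariate (0.62, adjusted p = 0.812) and held in 1 of 6 fits that left out a tumor. With D14 IL-27 none of the 18 was called in edgeR (4 were lower at an unadjusted p under 0.05, which 2.76% of all genes had in either direction, and DESeq2 called 0), with a median of -0.93 against 0.02. With EOS IL-27+cabo the median was 1.96 against -0.00306, with 0 called in edgeR, 11 higher at an unadjusted p under 0.05 and 11 called by DESeq2, where 14.2% of all genes had such a p in either direction and DESeq2 called 937 of 20026. Averaged from D14 to EOS, Iigp1 alone of the 18 fell (-1.86, SE 0.44, edgeR adjusted p = 0.0418), with a median of -1.01 against -0.03, and DESeq2 called 10. Over the same comparison, where 1.31% of all genes fell, 9 of 18 T and NK cell markers fell, Cd3e (-2.39, SE 0.39), Cd2 (-2.37, SE 0.41) and Cd3g (-2.74, SE 0.48) with the smallest p. With the muscle covariate Cd3e was still called (-2.98, adjusted p = 0.0243), whereas Cd2 (-2.76, adjusted p = 0.0808), Cd3g (-3.11, adjusted p = 0.0712) and Iigp1 (-0.93, adjusted p = 1.0) were not, and Iigp1 was called in 7 of 20 fits that left out a tumor. Of 57 genes of all lists called in the SC tumors, 33 were still called with offsets for GC content and length. Those no longer called included Klrk1, Iigp1, Irgm2 and Tyk2 (log2 fold changes 0.77, 2.37, 1.63 and -0.42).

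Genes that process, bind or transduce the ligands were measured beside them, and of 7 tested 1 rose and 4 fell in SC tumors (3.52% and 16.5% of all genes), 2 rose with D14 cabo (1.2%), and 1 rose and 2 fell from D14 to EOS on average (0.584% and 1.31%). Dpp4, whose protease trims CXCR3 ligands, stood at 1.93 and 3.44 CPM in SC control and at 17.5 and 70.3 CPM in SC IL-27 tumors, and rose (log2 fold change 4.03, SE 0.74, edgeR adjusted p = 0.0102). Averaged from D14 to EOS, Dpp4 fell by 1.23 on the log2 scale (SE 0.30, edgeR adjusted p = 0.047), whereas Mmp9, a protease that also cleaves these chemokines, rose (1.71, SE 0.26, edgeR adjusted p = 0.00311). Gnai2 and Arrb2, which encode a G protein subunit and an arrestin used by chemokine receptors, fell with IL-27 in the SC tumors (-2.47 and -2.29, SE 0.35 and 0.34), but neither was called with offsets for GC content and length (-0.65 and -0.76, adjusted p = 0.133 and 0.0854). Pf4, another CXCR3-binding chemokine, fell in those tumors (-2.39, SE 0.43) and rose with D14 cabo (0.89, SE 0.15, edgeR adjusted p = 0.0295). Ackr1, a decoy receptor of venular endothelium and erythroid cells, rose with D14 cabo (3.20, SE 0.35, edgeR adjusted p = 0.00718) and fell from D14 to EOS on average (-1.98, SE 0.36). With the muscle covariate neither Pf4 (1.47, adjusted p = 0.314) nor Ackr1 (3.31, adjusted p = 0.587) was called with D14 cabo, and the average calls of Dpp4, Mmp9 and Ackr1 were lost as well (-1.18, 1.74 and -1.37, adjusted p = 0.692, 0.137 and 0.697). Leaving out 1 tumor kept the average call of Dpp4 in 3 of 20 fits and the D14 cabo call of Pf4 in 2 of 6. Ackr3, the alternative receptor of CXCL11, was between 30.6 and 153 CPM in bone and was not called in these comparisons (edgeR adjusted p = 0.346 in SC tumors and 0.688 from D14 to EOS).

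Other lymphocyte chemokine genes did not all move with Cxcr3. In the SC tumors, where Cxcr3 was at -1.37, Cxcr6, a receptor of effector T cells, rose by 4.03 (SE 0.56), while Ccl21a, a homing chemokine of lymphatic vessels, fell (-6.07, SE 1.34, and -4.55 with an adjusted p of 0.0821 with GC content and length offsets). With D14 cabo Cxcr5, the follicular homing receptor (-2.52, SE 0.25), and Ccl21a (-4.61, SE 0.62) fell, and Ccr7, the receptor of CCL21, rose (1.26, SE 0.21). None of these 3 was called with the muscle covariate (-2.59, -4.92 and 1.31, adjusted p = 0.364, 0.430 and 0.697). Leaving out 1 tumor at a time kept the calls of Cxcr5, Ccl21a and Ccr7 in 6, 3 and 2 of 6 fits. Averaged from D14 to EOS, Cxcr6 (-2.13, SE 0.34), Ccr7 (-1.20, SE 0.19) and Ccl5 (-1.33, SE 0.32) fell, the direction of Cxcr3. With the muscle covariate Cxcr6 was still called (-2.62, adjusted p = 0.0224), and Ccr7 and Ccl5 were not (-1.12 and -1.04, adjusted p = 0.141 and 0.990). Of the 9 macrophage markers, genes of a cell type that can make the ligands, 0 were called in that average (edgeR; 4 were lower at an unadjusted p under 0.05, and DESeq2 called 2), with summed levels of 607 to 1274 CPM in D14 control and 386 to 648 CPM in EOS control tumors. In the same average 0 of 7 dendritic cell markers were called in edgeR (2 at an unadjusted p under 0.05 and 0 in DESeq2), 2 of 6 endothelial markers rose, and 1 of 12 marrow myeloid and erythroid markers fell, where 0.584% of all genes rose and 1.31% fell.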

How the data were processed

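RNA of 4 subcutaneous and 20 intratibial tumors was sequenced by the authors with a stranded poly(A) protocol, and raw read counts per Ensembl gene were deposited. Per the labels, the processing notes name FastQC, HISAT2, StringTie, DESeq2 and the human build GRCh38, although the identifiers are mouse. The counting program, its strand setting and the mouse build are not given in the sources used here. Of 55401 identifiers, 55141 matched GENCODE M21. Between 30.4% and 35.5% of values from 1 to 20 were multiples of 4, so intervals cover counting error only.

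Groups came from the labels. Separate tumors were the replicates. Counts were normalized by TMM, filtered by filterByExpr and tested by edgeR's quasi-likelihood test (edgeR 4.0.16, limma 3.58.1, R 4.3.3) in each comparison's own tumors, with Benjamini-Hochberg adjustment over all genes tested and a threshold of 0.05. That test gives no standard error. Each SE beside an edgeR value is the absolute log2 fold change divided by the square root of the F statistic. The study's own tool, DESeq2 (1.42.0), was an alternative, with RLE normalization, no filter, GC content and length offsets (splines of 5 degrees of freedom), a muscle score covariate, 1 fit of all intratibial groups, a replicate block and leaving out each tumor. Exact permutation tests were two-sided on log2 CPM with a prior count of 2. Permutations were run in Python 3.11.15 (pandas 2.3.3, scipy 1.17.1). The fits were tested on simulated data. Members and lists were chosen with earlier results of these data known. Named genes are the 4 members, 9 fixed pathway genes, up to 3 called genes of smallest p per list and comparison, and the 5 most similar genes per member over the 20 intratibial tumors. Some genes of this rule are not reported here. The replicate numbers of the subcutaneous groups did not pair the tumors.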

Additional observations from a re-analysis of the deposited data

Results flagged for a closer look

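Cxcl11 lay on opposite sides of its controls with IL-27 at 2 sites, and edgeR called neither difference (adjusted p = 0.106 in subcutaneous tumors and 1 at EOS). In the subcutaneous tumors its mean was 0.723 CPM higher with IL-27 than without, with both IL-27 tumors above both controls. In the EOS intratibial tumors the difference was -0.0562 CPM, from 0 and 0 counts with IL-27 against 4 and 4 counts without. The difference between the sites was not tested, and multiples of 4 are over-represented among low counts in every library.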

How the results depend on the processing

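Leaving aside fits that leave out a tumor, 347 of 374 values of the 4 genes kept their direction and side of the threshold; where one did not, the cause was not tested. DESeq2 added calls for Cxcl11 in SC tumors (4.18), Cxcl10 in the D14 cabo average (1.28), Cxcl9 with EOS IL-27+cabo (2.91), Cxcl9 and Cxcr3 from D14 to EOS in controls (-3.47 and -2.29), Cxcl11 and Cxcr3 with cabo (-3.52 and -2.73) and Cxcl11 on average (-2.79). The exact permutation, chosen after seeing the data, put the last at -1.62 (p = 0.0085). The call of Cxcl10 from D14 to EOS with cabo was lost with no filter (-1.87), GC content and length offsets (-1.83), the muscle covariate (-1.27) and all intratibial groups in 1 fit (-1.89). The muscle covariate also ended the average D14 to EOS calls of Cxcl9 (-1.45) and Cxcr3 (-2.69). With it the direction turned for Cxcl9 and Cxcl11 with D14 IL-27+cabo (0.47 and -0.20), Cxcl9 and Cxcr3 in the D14 cabo average (-0.49 and 0.89), the Cxcl9 interaction (1.57), Cxcl10 and Cxcl11 with EOS cabo (0.51 and -2.68), Cxcl10 from D14 to EOS with IL-27 (0.80) and Cxcl10 and Cxcl11 with IL-27+cabo (-1.35 and 0.19). GC offsets turned Cxcr3 with EOS IL-27 (0.021).

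The replicate numbers of the SC tumors share only a number (correlation of deviations 0.0313). With a replicate block the values were 2.72 for Cxcl9 (adjusted p = 0.000546), -0.88 for Cxcl10 (0.205), 4.43 for Cxcl11 (0.125) and -1.38 for Cxcr3 (0.214), and with the block and GC offsets Cxcl10 was called (-1.55, adjusted p = 0.0493). No paired analysis was possible for intratibial groups because their numbers name mice.

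Genes called moved by over 1.5 times under these settings. DESeq2 called 6172 against 3880 in SC tumors. At D14 it called 2 against 0 (IL-27), 1500 against 352 (cabo), 484 against 12 (IL-27+cabo), 1062 against 155 (cabo average), 13 against 0 (IL-27 average) and 4 against 0 (interaction). At EOS it called 23, 270 and 937 against 0 each for IL-27, cabo and IL-27+cabo. From D14 to EOS it called 872 against 20 (control), 109 against 0 (IL-27), 1739 against 400 (cabo), 330 against 0 (IL-27+cabo), 1258 against 409 (average) and 283 against 63 (change of the cabo effect). GC offsets gave 2205 in SC tumors, 2333 with the block, 32 with D14 IL-27+cabo and 314 in the cabo average. No filter gave 101 with D14 cabo, and 0 and 110 from D14 to EOS in control and cabo. The muscle covariate gave 0 with D14 cabo and IL-27+cabo, 16 in the cabo average, and 0, 52 and 33 from D14 to EOS in control, cabo and average. All intratibial groups in 1 fit gave 40, 96 and 281 with D14 cabo, IL-27+cabo and the cabo average, and 0, 53 and 71 from D14 to EOS in control, cabo and IL-27+cabo.

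Leaving out each tumor in turn gave 453 of 513 values with the direction and side of the threshold unchanged. The ranges of those that changed follow. In SC tumors the range was Cxcl9 from 2.28 to 3.13. With D14 cabo the range was Cxcl9 from -0.37 to 1.38. With D14 IL-27+cabo the range was Cxcl9 from -0.73 to 0.27. In the D14 cabo average the range was Cxcl10 from 1.06 to 1.89, Cxcl11 from 1.90 to 3.61 and Cxcr3 from -0.55 to 0.36. In the interaction the range was Cxcl9 from -0.69 to 2.11. With EOS IL-27 the range was Cxcl9 from -1.60 to 0.86, Cxcl10 from -2.58 to 0.48 and Cxcr3 from -0.48 to 0.43. With EOS cabo the range was Cxcl10 from -1.47 to 1.52 and Cxcl11 from -5.05 to 1.25. With EOS IL-27+cabo the range was Cxcr3 from -1.55 to 0.35. For EOS against D14 in controls the range was Cxcl10 from -2.86 to 0.12. For EOS against D14 with IL-27 the range was Cxcl10 from -1.97 to 0.16. For EOS against D14 with cabo the range was Cxcl10 from -2.20 to -1.57. For EOS against D14 with IL-27+cabo the range was Cxcl9 from -1.81 to 0.23, Cxcl10 from -0.99 to 0.94 and Cxcl11 from -0.90 to 0.40. For EOS against D14 on average the range was Cxcl9 from -2.92 to -1.96, Cxcl11 from -4.24 to -2.21 and Cxcr3 from -2.39 to -1.72. In the change of the cabo effect the range was Cxcl10 from -0.55 to 1.16 and Cxcl11 from -0.42 to 2.73.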
